A study of Mus musculus with 60 samples.

Results

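The genes of MHC class I antigen presentation were followed in whole blood of mice given BIO300, a formulation of synthetic genistein, with and without total body irradiation (TBI). The set held 10 genes of the 49315 in the count tables. They were H2-K1 and H2-D1 (classical heavy chains), H2-Q4, H2-Q6, H2-Q7 and H2-T23 (non-classical heavy chains), B2m (the light chain), Tap1 and Tap2 (the peptide transporter) and Nlrc5 (a transcriptional activator). Members were taken by gene symbol and identifier, by a rule that names no measured value, and each of the 10 was measured in every mouse.

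The animals were 60 male CD2F1 mice, bought at an age of 5 to 6 weeks, and 6 were bled in each of 10 groups. Oral gavage was given 2 times daily for 6 days, with vehicle or with BIO300 at 50, 100 or 200 mg/kg. The doses come from the methods of the study, and the sample labels call them Low, Med and High. For vehicle and each dose, 1 group was bled on Day 0, which was 24 h after the last dose, and another on Day 1, which was 48 h after it. A vehicle group and a 200 mg/kg group also received 9.2 Gy of cobalt-60 gamma rays on Day 0 and were bled 24 h later, on Day 1. Each mouse gave 1 terminal blood sample into a PAXgene tube, and reads were counted per gene. The fold changes below are log2 values of the first named group over the second, and a gene is called changed at an adjusted p under 0.05 (edgeR quasi-likelihood test, adjusted over all genes tested).

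CD8 T cells recognise peptides held by MHC class I on the surface of other cells. A heavy chain pairs with beta-2-microglobulin in the endoplasmic reticulum, and the TAP1/TAP2 transporter brings in peptides that the proteasome made in the cytosol. Tapasin, calreticulin, calnexin and ERp57 hold the empty molecule while ERAP1 trims the peptides. NLRC5 drives the heavy chain, B2m and transporter genes together, on promoters that also take up RFX, CREB, NF-Y, NF-kB and interferon regulatory factors. Nearly all nucleated cells carry class I, with high amounts on lymphocytes. Mouse platelets and young red cells also carry class I molecules or their transcripts. In whole blood, fewer cells of a type and less RNA per cell cannot be told apart.

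The libraries held 15099415 to 45589415 assigned counts, with a median of 24877993.5. Gm26917, a noncoding RNA gene, took 5.32% to 8.77% of the counts in the vehicle mice on Day 1 and 0.0562% to 1.46% at 200 mg/kg. Haemoglobin genes took a median of 9.76% of the counts in those vehicle mice, 15.9% at 100 mg/kg and 16.9% at 200 mg/kg. TMM normalization multiplied library sizes by 1.15 to 1.63 in those vehicle mice and by 0.415 to 0.646 at 200 mg/kg. After TMM, red cell markers summed to a median of 99664 counts-per-million (CPM) in those vehicle mice, 400485 at 100 mg/kg and 457315 at 200 mg/kg. These red cell sums carry that scaling, while the percentages do not. The scaling of libraries therefore bears on the fold changes. For the members, values scaled by total counts stand beside the main ones where they turn a direction or a call. Hepatocyte transcripts, which blood cells should lack, were present in 11 mice of 9 groups.

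All positions are GRCm38 with GENCODE M21 gene models. Besides B2m on chromosome 2 (122147686 to 122153083) and Nlrc5 on chromosome 8 (94434356 to 94527272), the members lie in the MHC on chromosome 17. There, H2-K1 spans 33996017 to 34000347, Tap1 34187553 to 34197225 and Tap2 34203527 to 34216321. Downstream, H2-D1 spans 35262730 to 35267499, H2-Q4 35379617 to 35385290, H2-Q6 35424850 to 35430055, H2-Q7 35439155 to 35443773 and H2-T23 36029773 to 36032855. The heavy chain genes share stretches of sequence. Of the exonic 50-base words of H2-Q4, 36.4% also occur in another gene, against 35.0% for H2-Q6, 26.5% for H2-Q7, 14.5% for H2-T23, 12.8% for H2-D1, 9.63% for H2-K1 and 0 for B2m. The gene sharing most words with H2-Q6 is H2-Q7, while for H2-Q4 it is Gm11131, an antisense gene at the same locus. CD2F1 mice carry the H-2d haplotype of both parent strains, whereas the reference is C57BL/6J with H-2b. The split of reads among the heavy chain genes is therefore uncertain. Genes on the opposite strand overlap 19.1% of the exonic length of H2-Q4 and 14.1% of that of Tap2, and the strand setting of the counting is not given in the sources used here.

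The proximal promoters of B2m and of the heavy chain genes other than H2-T23 are shown. These members hold the same kinds of motif, while the transcripts of the same genes did not move together below. The sequences are RefSeq's for GRCm38.p6, taken from within the 250 bases before the annotated start and written 5' to 3' on the strand of the gene. The start of H2-D1 in that table lies downstream of the GENCODE start, so its stretch falls inside the gene span given above. Capitals mark matches of an NF-kB consensus, of an interferon regulatory factor motif (GAA or GAAA, then 2 bases of any kind, then GAAA, on either strand, which in B2m lies before the NF-kB match) and of TGAC followed by ATTGG, as in a CREB site and an NF-Y site. The stretches lie at chr17:34000354-34000463 (minus strand) for H2-K1, and on the plus strand at chr17:35262918-35263027 for H2-D1, chr17:35379438-35379547 for H2-Q4, chr17:35424672-35424780 for H2-Q6, chr17:35439017-35439124 for H2-Q7 and chr2:122147543-122147643 for B2m.
H2-K1: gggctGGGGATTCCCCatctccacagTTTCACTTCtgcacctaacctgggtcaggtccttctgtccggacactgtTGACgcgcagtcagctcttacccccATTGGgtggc
H2-D1: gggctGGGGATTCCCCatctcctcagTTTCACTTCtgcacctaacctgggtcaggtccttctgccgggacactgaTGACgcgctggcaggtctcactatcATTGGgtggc
H2-Q4: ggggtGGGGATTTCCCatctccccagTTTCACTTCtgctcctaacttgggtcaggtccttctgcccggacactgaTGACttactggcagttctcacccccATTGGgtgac
H2-Q6: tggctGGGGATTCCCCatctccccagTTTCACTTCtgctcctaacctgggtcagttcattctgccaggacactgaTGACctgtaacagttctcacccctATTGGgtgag
H2-Q7: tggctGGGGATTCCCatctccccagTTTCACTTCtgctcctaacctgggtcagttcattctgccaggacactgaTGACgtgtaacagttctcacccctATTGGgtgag
B2m: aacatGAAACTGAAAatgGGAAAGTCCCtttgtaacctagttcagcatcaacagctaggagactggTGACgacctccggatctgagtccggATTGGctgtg

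The TGAC and ATTGG letters stand 20 or 21 bases apart in these 6 promoters. Of 27025 mouse promoters in the same table, 7.01% held the NF-kB consensus, 8.91% the interferon regulatory factor motif and 2.12% TGAC followed by ATTGG at 16 to 26 bases. H2-T23 held the interferon regulatory factor motif without the others, and Tap1 held none of the 3. The motifs were chosen after these sequences had been seen, and a match is a run of letters and not a measured binding site.

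Per kilobase of exon, B2m had the highest level in the vehicle mice on Day 0, with a mean of 820.3 CPM per kb. The classical H2-D1 followed with 169.9 CPM per kb and H2-K1 with 83.6. The non-classical genes ranged from 33.4 CPM per kb (H2-T23) to 4.23 (H2-Q7). Tap1 stood at 8.33 CPM per kb, Tap2 at 6.47 and Nlrc5 at 4.77.

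**Figure D1:**
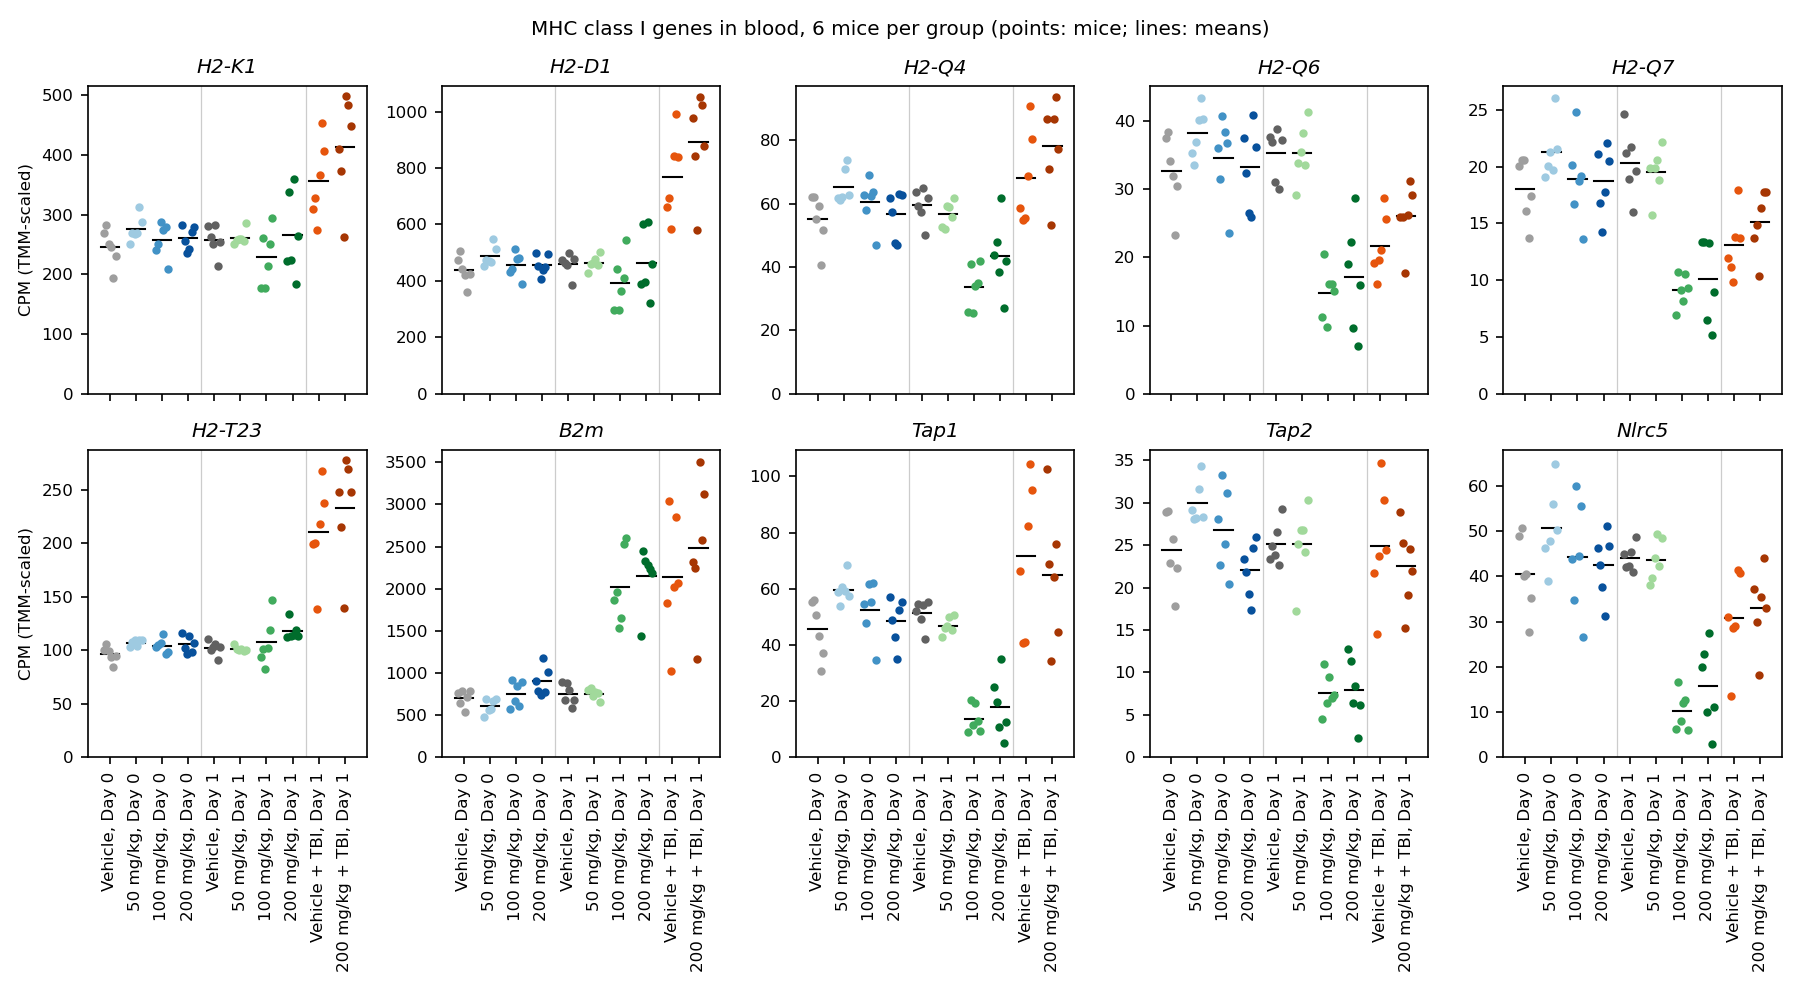
Level of each of the 10 genes in each mouse (CPM after TMM, vertical axis from 0) in the 10 groups of 6 mice, with a line at each group mean. B2m stood between 1019 and 3498 CPM in the Day 1 groups at 100 mg/kg, 200 mg/kg and both TBI groups, and at 1172 or below in the others, while Tap1, Tap2 and Nlrc5 were lowest at 100 and 200 mg/kg without TBI.

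The order of the group means divided the members into several patterns, in which neighbouring groups were counted as apart if their means differed by more than the larger of their SDs. H2-K1, H2-D1 and H2-T23 were highest in both TBI groups, and the 8 other groups lay within the spread of their neighbours. H2-Q6 and H2-Q7 were lower in both TBI groups and in the Day 1 groups at 100 and 200 mg/kg than in the other 6 groups. Tap1, Tap2 and Nlrc5 were lower in these 2 dose groups than in the other 8, and H2-Q4 had the same 2 groups at the bottom. B2m went the other way, with those 4 groups above the other 6.

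By edgeR after TMM, no member was called changed on Day 0 at any dose or on Day 1 at 50 mg/kg. Some ratios to Ptprc in these groups passed their own limit, as given below. At 50 mg/kg on Day 0, where 14.1% of 24485 genes were called (4.21% higher, 9.87% lower) and DESeq2 called no member, the log2 fold changes against vehicle were 0.40 for Tap1 (adjusted p = 0.0728), 0.34 for Nlrc5, 0.30 for Tap2, 0.26 for H2-Q4 and 0.17 for H2-T23, these 5 at an unadjusted p under 0.05. Tap1 measured 53.8, 59.0 and 68.4 CPM (lowest, median and highest mouse) at 50 mg/kg against 30.8, 47.0 and 56.1 in vehicle, so that the groups overlapped only at their edges. B2m had a log2 fold change of -0.20 there after TMM and of 0.46 when libraries were scaled by total counts. Scaled by total counts, all 10 members were called higher at 50 mg/kg, by 0.46 to 1.06, while 53% of all genes were called and the median of all genes itself moved by 0.69. In this group, after TMM, the 7 platelet markers were lower (median log2 fold change -1.001) and 4 of 8 B cell markers higher. Their part in the member values was not tested.

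The other comparisons of this kind also held no called member. At 200 mg/kg on Day 0, edgeR called 0% of 23795 genes, DESeq2 called no member, and 1 member, B2m with a log2 fold change of 0.37, had an unadjusted p under 0.05. At 100 mg/kg on Day 0 (0% of 24000 called) the 10 fold changes ran from 0.07 to 0.22. On Day 1 at 50 mg/kg (0.00829% of 24118 called) they ran from -0.12 to 0.03, and between the vehicle groups of both days (0% of 24375 called) from 0.03 to 0.17. In these last 3 comparisons 0 members had an unadjusted p under 0.05 and 0 were called by DESeq2.

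On Day 1 at 100 and 200 mg/kg, 48 h after the last dose, the peptide transporter, Nlrc5, H2-Q6 and H2-Q7 were lower than in vehicle and B2m was higher. At 100 mg/kg Tap1 had a log2 fold change of -1.83, whereas B2m rose by 1.48 on the log2 scale. H2-K1 and H2-D1 were not called at either dose. Both doses share the same 6 vehicle mice, so their values stand side by side and are not independent of each other.

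Nlrc5, the activator, measured 41.0, 43.6 and 48.6 CPM (lowest, median, highest) in the vehicle mice on Day 1. The values were 6.15, 10.0 and 16.7 CPM at 100 mg/kg and 2.93, 15.5 and 27.5 CPM at 200 mg/kg. Every treated mouse was below every vehicle mouse. The log2 fold change was -2.02 (SE 0.23, adjusted p = 4.13e-06) at 100 mg/kg and -1.40 (SE 0.35, adjusted p = 0.00321) at 200 mg/kg.

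Tap1, a subunit of the transporter, measured 42.3, 53.1 and 55.4 CPM in vehicle, 8.85, 12.2 and 20.3 CPM at 100 mg/kg and 5.09, 16.1 and 34.9 CPM at 200 mg/kg. Its partner Tap2 measured 22.7, 24.3 and 29.2 CPM in vehicle, 4.48, 7.13 and 11.0 CPM at 100 mg/kg and 2.28, 7.41 and 12.8 CPM at 200 mg/kg. Both genes were separated from vehicle without overlap at both doses, and the spread was widest at 200 mg/kg. Tap1 fell by 1.83 (SE 0.21, adjusted p = 4.21e-06) and by 1.43 (SE 0.33, adjusted p = 0.00165) on the log2 scale at 100 and 200 mg/kg. The log2 fold changes of Tap2 were -1.66 (SE 0.19, adjusted p = 4.05e-06) and -1.58 (SE 0.28, adjusted p = 0.000213).

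Among the non-classical heavy chains, H2-Q6 measured 30.1, 37.1 and 38.8 CPM in vehicle, 9.85, 15.6 and 20.5 CPM at 100 mg/kg and 6.94, 17.5 and 28.7 CPM at 200 mg/kg. H2-Q7 measured 16.0, 20.4 and 24.6 CPM in vehicle, 6.93, 9.22 and 10.7 CPM at 100 mg/kg and 5.20, 11.1 and 13.4 CPM at 200 mg/kg. Neither gene overlapped vehicle at either dose. The log2 fold changes at 100 and 200 mg/kg were -1.18 (adjusted p = 2.62e-05) and -0.96 (adjusted p = 0.00591) for H2-Q6, and -1.10 (adjusted p = 6.29e-06) and -0.92 (adjusted p = 0.00223) for H2-Q7. H2-Q4 was lower at 100 mg/kg (-0.75, SE 0.14, adjusted p = 0.00027), with 25.3 to 41.9 CPM against 50.0 to 64.9 in vehicle, while at 200 mg/kg its value of -0.38 had an adjusted p of 0.0503 and the groups overlapped. H2-Q4 was called lower at 200 mg/kg by DESeq2 (adjusted p = 0.0246), with DESeq2 size factors, without a filter, with the covariate and by total counts (-1.88). H2-T23, the heavy chain that presents leader peptides of other class I chains to NK cell receptors, measured 90.8, 103 and 111 CPM in vehicle and 113, 114 and 134 CPM at 200 mg/kg. Its log2 fold change at 200 mg/kg was 0.28 (SE 0.09, adjusted p = 0.0115) after TMM and -1.25 when scaled by total counts, and at 100 mg/kg it was 0.13 (adjusted p = 0.347) after TMM and -1.28 by total counts. The TMM call at 200 mg/kg rested on vehicle mouse 26, without which it was 0.22 (adjusted p = 0.0583).

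The classical H2-K1 measured 214, 258 and 283 CPM in vehicle, 176, 233 and 295 CPM at 100 mg/kg and 183, 245 and 361 CPM at 200 mg/kg. H2-D1 measured 386, 470.1 and 500.4 CPM in vehicle, 296, 388 and 544 CPM at 100 mg/kg and 323, 428 and 609.8 CPM at 200 mg/kg. The treated mice lay on both sides of vehicle. At 200 mg/kg the log2 fold changes were 0.12 (SE 0.17, adjusted p = 0.534) for H2-K1 and 0.09 (SE 0.17, adjusted p = 0.657) for H2-D1 after TMM, and -1.39 and -1.43 by total counts. At 100 mg/kg they were -0.11 (SE 0.14) and -0.17 (SE 0.15) after TMM. Mouse 47 at 200 mg/kg had the lowest value of its group in 8 of the 10 members, the exceptions being B2m and H2-T23.

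B2m was the member that rose at both doses after TMM. It measured 586, 739.5 and 893 CPM in vehicle, 1534, 1911 and 2602 CPM at 100 mg/kg and 1443, 2257 and 2450.4 CPM at 200 mg/kg, with no overlap. The log2 fold change was 1.48 (SE 0.18, adjusted p = 7.08e-06) at 100 mg/kg and 1.59 (SE 0.17, adjusted p = 2.13e-06) at 200 mg/kg. Scaled by total counts, B2m was not called at either dose, with 0.07 (adjusted p = 0.754) and 0.03 (adjusted p = 0.867), and the 9 other members were all called lower at both. B2m has the shortest exonic length of the members at 0.86 kb. Over all genes of at least 10 CPM, the 151 genes under 1 kb had a median log2 fold change of 1.14 at 200 mg/kg against 0.16 for genes over 8 kb. At 100 mg/kg these medians were 1.37 and 0.14. The part of transcript length in the B2m values was not tested.

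**Figure D2:**
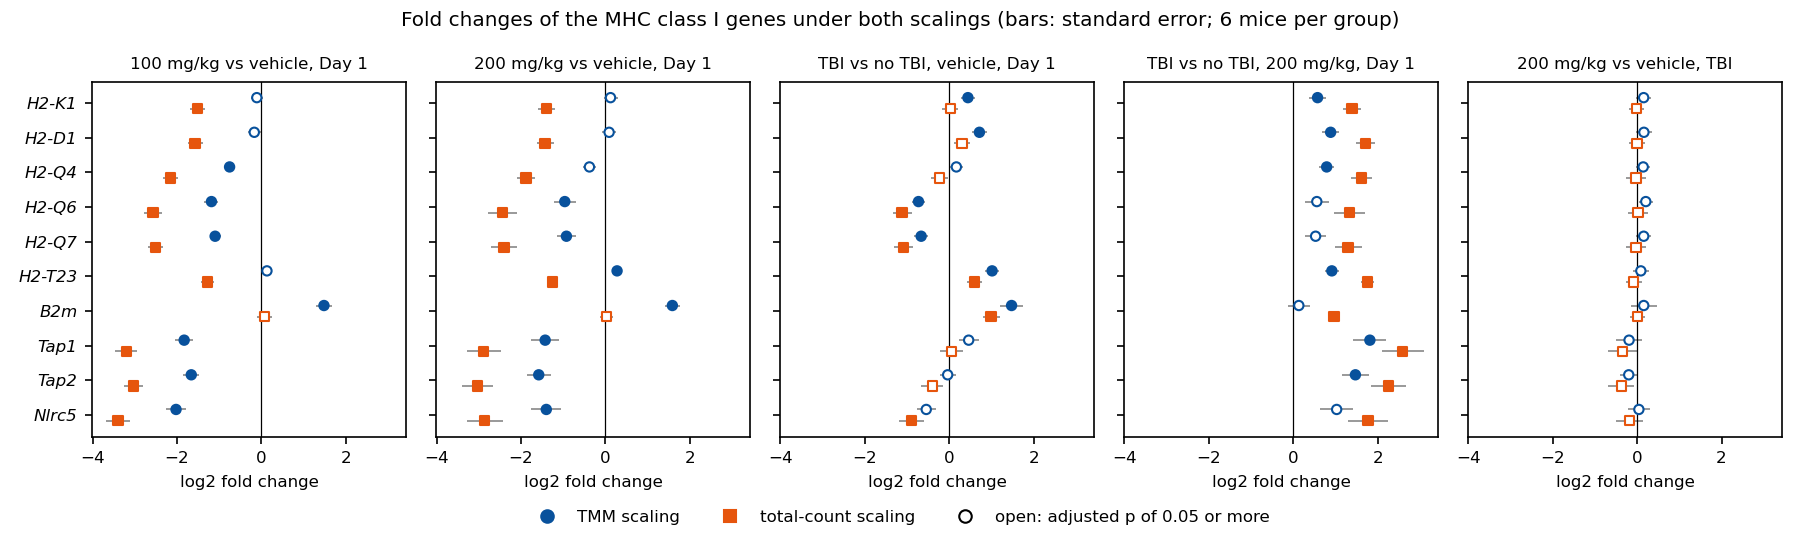
Log2 fold change of each member in 5 comparisons, with blue circles for TMM and orange squares for total counts, bars for the SE and open symbols where the adjusted p is 0.05 or more. At 200 mg/kg on Day 1, H2-K1, H2-D1 and H2-T23 lie above 0 after TMM (0.12, 0.09 and 0.28) and below 0 by total counts (-1.39, -1.43 and -1.25), whereas Tap1, Tap2, Nlrc5, H2-Q6 and H2-Q7 lie below 0 under both.

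Counted over the set, 1 member rose and 6 fell at 100 mg/kg, and 2 rose and 5 fell at 200 mg/kg, after TMM. These comparisons called 65.6% of 23699 genes (25% higher, 40.6% lower) and 63.5% of 23513 genes (23.6% higher, 39.9% lower), so a share of 7 in 10 members was near the background. In each comparison 7 members had groups without overlap, where 47.6% of all genes at 100 mg/kg and 47% at 200 mg/kg had none. Without the mice with hepatocyte RNA, the same 7 members were called at each dose. The 10 members had a median log2 fold change of -0.92 at the 100 mg/kg dose and of -0.65 at the 200 mg/kg dose, beside -0.38 and -0.48 over all genes tested. With the total counts of the libraries as the scale, the all-gene medians were -1.76 and -1.96. On that scale the calls at 100 mg/kg split into 1830 up and 16244 down, in place of 5933 and 9624, and those at 200 mg/kg into 1560 and 16735, in place of 5556 and 9386.

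The dose effect differed between the days for most of these genes. In the test of the difference at 200 mg/kg (48.8% of 25702 genes called), B2m had 1.24 more on the log2 scale on Day 1 than on Day 0. The differences were -1.53 for Tap1, -1.49 for Nlrc5, -1.44 for Tap2, -1.002 for H2-Q6 and -0.99 for H2-Q7. At 100 mg/kg (54.2% of 25908 called) they were 1.39 for B2m, -2.16 for Nlrc5, -2.05 for Tap1, -1.80 for Tap2, -1.27 for H2-Q6, -1.16 for H2-Q7 and -0.89 for H2-Q4. By total counts the B2m differences were -0.067 at 100 mg/kg and -0.075 at 200 mg/kg, neither called, and the others named here stayed lower. At 50 mg/kg (17.5% of 26323 called) Tap1 alone differed between the days after TMM, by -0.51 (adjusted p = 0.0301), and by total counts all 10 members differed (-1.49 to -0.80). By total counts 795 of all genes were called higher there and 12868 lower.

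Markers of leukocytes and platelets moved in both directions in these groups after TMM. All marker sums and calls are on that scale and are not given by total counts. Median TMM factors were 1.45 in the Day 1 vehicle mice, 0.558 at 100 mg/kg and 0.538 at 200 mg/kg. A marker rise after TMM at these doses may therefore not hold by total counts. On Day 1 the 8 B cell markers summed to 862 to 1331 CPM in vehicle, 238 to 582 CPM at 100 mg/kg and 138 to 468 CPM at 200 mg/kg, and 8 of 8 were lower at both doses. Of the 8 T cell markers 7 were lower and 1 higher at both doses, and their sum fell from 285 to 358 CPM in vehicle to 93.8 to 155 and 83.5 to 183 CPM. The 7 platelet markers summed to 1885 to 3802 CPM in vehicle, 14263 to 32178 CPM at 100 mg/kg and 13655 to 23878 CPM at 200 mg/kg, and all 7 were higher. Monocyte markers had a median sum of 468 CPM in vehicle, 1012 CPM at 100 mg/kg and 1274 CPM at 200 mg/kg, neutrophil markers 569.9, 871 and 647 CPM, and NK cell markers 126, 97.1 and 137 CPM. No marker stood at 0 in any of the groups. The part of the cell mixture in the member values was not tested.

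**Figure D3:**
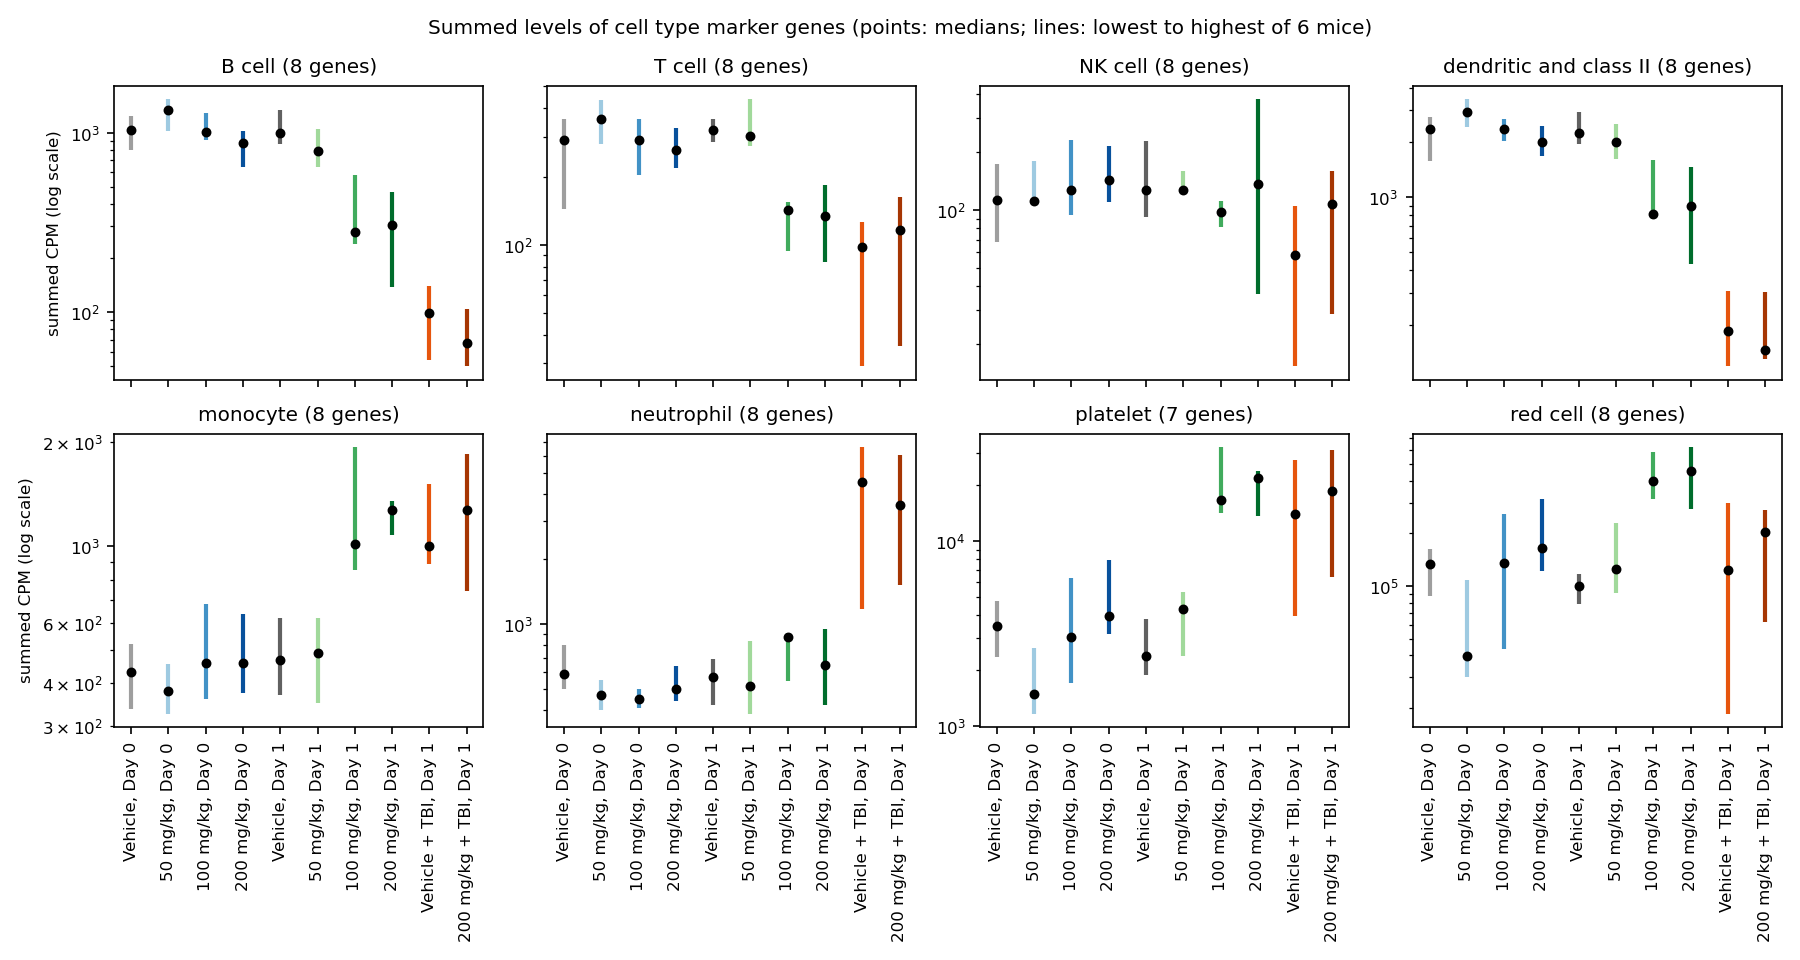
Summed CPM (after TMM) of 8 marker lists in the 10 groups on a log axis, with points at group medians and lines from the lowest to the highest mouse. B cell markers had a median of 1001 CPM in the Day 1 vehicle mice, 307 CPM at 200 mg/kg and 99.05 CPM after TBI, while platelet markers had 2401, 22052 and 14048 CPM.

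TBI alone raised the light chain and part of the heavy chains and lowered H2-Q6 and H2-Q7, 24 h after 9.2 Gy. B2m rose by 1.48, H2-T23 by 1.02, H2-D1 by 0.71 and H2-K1 by 0.44 on the log2 scale against the vehicle mice of Day 1. H2-Q6 fell by 0.73 and H2-Q7 by 0.67. Tap1, Tap2, H2-Q4 and Nlrc5 were not called. The comparison called 46.8% of 25146 genes (24.4% higher, 22.4% lower), and the members' median was 0.31 against 0.09 over all genes tested.

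B2m measured 1019, 2044 and 3046 CPM (lowest, median, highest) after TBI, against 586, 739.5 and 893 CPM in vehicle, without overlap (SE 0.27, adjusted p = 0.000763). H2-T23 measured 139, 209 and 267 CPM against 90.8, 103 and 111 CPM, also without overlap (SE 0.16, adjusted p = 0.000291). H2-D1 measured 583, 767 and 991 CPM against a highest vehicle value of 500.4 CPM (adjusted p = 0.00492). For these 3 genes every irradiated mouse was above every vehicle mouse, and 25.1% of all genes had groups without overlap in this comparison. H2-K1 overlapped, with 274, 348 and 454 CPM against 214, 258 and 283 CPM (SE 0.16, adjusted p = 0.0379), and this call held in 3 of 12 fits that each left out 1 mouse, with log2 fold changes of 0.36 to 0.54. By total counts, B2m (0.99) and H2-T23 (0.59) were still called higher, while H2-K1 (0.02) and H2-D1 (0.30) were not called.

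H2-Q6 measured 16.0, 20.3 and 28.7 CPM after TBI against 30.1, 37.1 and 38.8 CPM in vehicle, with no overlap (SE 0.16, adjusted p = 0.00239). H2-Q7 measured 9.80, 12.8 and 17.9 CPM against 16.0, 20.4 and 24.6 CPM (SE 0.17, adjusted p = 0.00679), with overlap. These neighbouring genes fell together while H2-Q4, from the same cluster, measured 54.7 to 90.8 CPM against 50.0 to 64.9 (0.17, SE 0.16, adjusted p = 0.384). Nlrc5 had a log2 fold change of -0.55 (SE 0.22, adjusted p = 0.0594), and it was called lower without irradiated mouse 50, 53 or 54, in turn, and by total counts (-0.90). Tap1 had 0.46 (SE 0.24, adjusted p = 0.129) and Tap2 -0.04 (SE 0.19, adjusted p = 0.884). Tap1 was called higher without mouse 50, without mouse 51, by DESeq2 (0.54, adjusted p = 0.0436) and without the mice with hepatocyte RNA (0.63, adjusted p = 0.0202).

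Against the vehicle mice of Day 0, which were bled on the day of irradiation, 4 members were called, all higher, where 19.6% of 24751 genes were called higher and 16.8% lower. The log2 fold changes were 1.71 for B2m, 1.23 for H2-T23, 0.91 for H2-D1 and 0.63 for H2-K1, and by total counts H2-K1 was not called (0.41, adjusted p = 0.166). H2-Q6 had -0.50 (adjusted p = 0.0543) and Tap1 0.76 (adjusted p = 0.0547), and DESeq2 called both (adjusted p = 0.0133 and 0.022). Without the mice with hepatocyte RNA 8 were called, with H2-Q4 and Tap1 added as higher and H2-Q6 and H2-Q7 as lower, where the share of all genes called was 57.1% in place of 36.4%. With the vehicle group of Day 1 as the control, the calls over all genes split into 6141 higher and 5624 lower after TMM, and into 3854 and 6915 by total counts.

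In the vehicle mice given TBI, the B cell markers summed to 53.7 to 139 CPM and 8 of 8 were lower than in vehicle. These marker values too are after TMM only. The T cell markers summed to 29.0 to 126 CPM, with 7 of 8 lower. Of the neutrophil markers 7 of 8 were higher and 1 lower, and their median sum was 4547 CPM against 570 in vehicle. Platelet markers were higher in 7 of 7, at 3910 to 27426 CPM. The part of these cell types in the member values was not tested.

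Between the irradiated groups, with 200 mg/kg or with vehicle, no member was called. The 10 log2 fold changes lay between -0.20 and 0.20, edgeR called 0% of 24916 genes, no member had an unadjusted p under 0.05 and DESeq2 called none. B2m measured 1166, 2445 and 3498 CPM in the mice given both, against 1019, 2044 and 3046 CPM with TBI alone, and Tap1 measured 34.2, 66.5 and 103 CPM against 40.9, 74.2 and 105 CPM. The groups overlapped for every member.

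Among mice given 200 mg/kg, the transporter and part of the heavy chain transcripts were higher after TMM in irradiated mice than in those not irradiated. Relative to Ptprc, H2-K1 and H2-Q4 were lower instead, as given with the ratios below. In those ratios Tap1 (0.44) and Tap2 (0.084) were not called. Tap1 rose by 1.82 (SE 0.39, adjusted p = 0.00423), Tap2 by 1.47 (SE 0.31, adjusted p = 0.00383), H2-T23 by 0.92 (SE 0.16, adjusted p = 0.00125), H2-D1 by 0.89, H2-Q4 by 0.79 and H2-K1 by 0.58 on the log2 scale. The other 4 were not called, with 1.03 for Nlrc5 (SE 0.39, adjusted p = 0.0683), 0.56 for H2-Q6, 0.53 for H2-Q7 and 0.13 for B2m. This comparison called 27.2% of 23610 genes (17.6% higher, 9.58% lower), with an all-gene median of 0.41 beside 0.84 for the members. By total counts all 10 members were called higher, by 0.96 to 2.60, with 48.8% of all genes called and an all-gene median of 1.31. Only H2-T23 and Tap2 among the members had groups without overlap, against 17.3% of all genes. Without the mice with hepatocyte RNA 8 members were called higher, with H2-Q7 (0.70) and Nlrc5 (1.22) added, where 39.7% of all genes were called.

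The test of the difference between these effects of TBI, at 200 mg/kg against vehicle, called 33.9% of 26875 genes. It gave 1.66 for Nlrc5 (adjusted p = 0.00995), 1.61 for Tap2 (adjusted p = 0.00217), 1.45 for Tap1 (adjusted p = 0.0213), 1.39 for H2-Q6 (adjusted p = 0.00317), 1.31 for H2-Q7 (adjusted p = 0.0019) and 0.74 for H2-Q4 (adjusted p = 0.0174). B2m had -1.21 (adjusted p = 0.00862), and by total counts -0.03. H2-K1 (0.25), H2-D1 (0.29) and H2-T23 (0.03) were not called after TMM, and all 3 were called by total counts (1.37, 1.42 and 1.17).

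**Figure D4:**
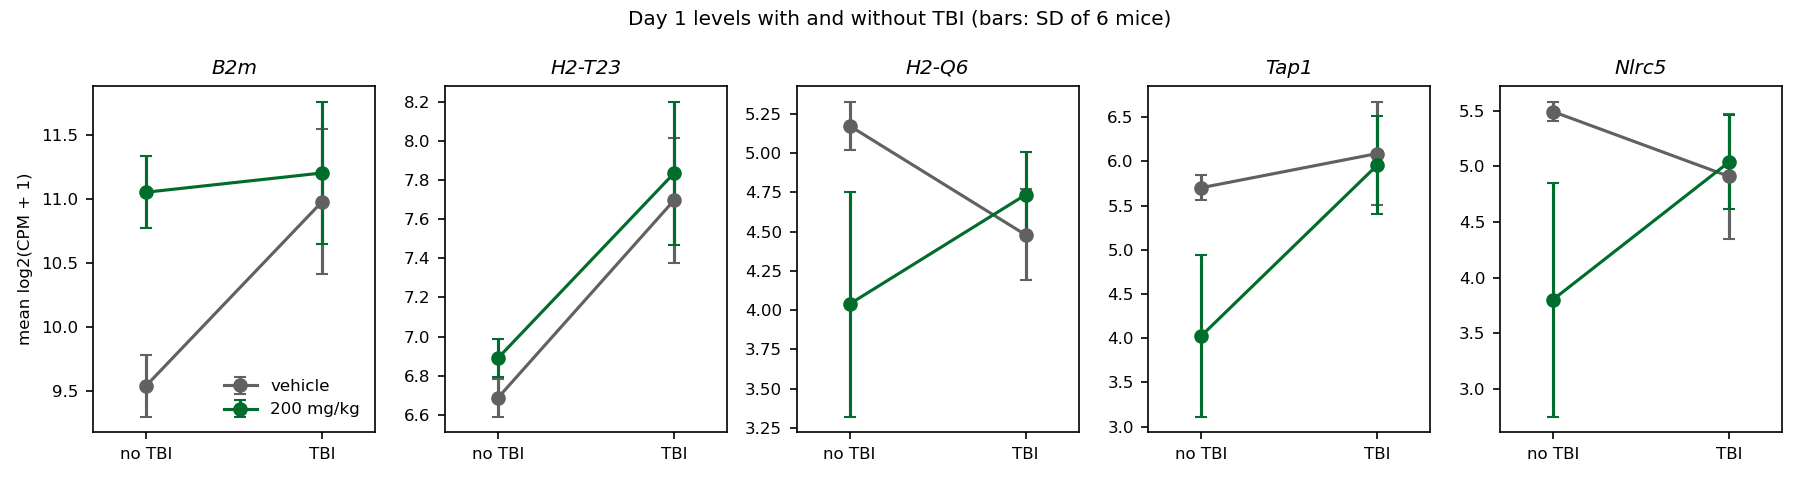
Mean log2(CPM + 1) with SD of B2m, H2-T23, H2-Q6, Tap1 and Nlrc5 on Day 1 without and with TBI, for vehicle and 200 mg/kg (6 mice each). The lines come close after TBI, where the mice of both groups overlapped for every gene and edgeR fold changes lay between -0.20 and 0.20. The plotted means after TBI differed most for H2-Q6 (4.48 for vehicle and 4.74 at 200 mg/kg). Without TBI the groups did not overlap for any of these genes, and the gap was smallest for H2-T23 (6.69 and 6.89).

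The study also asked for an absolute log2 fold change over 1. Past both limits, B2m stood higher and Tap1, Tap2, Nlrc5, H2-Q6 and H2-Q7 lower at 100 mg/kg on Day 1, where 18.2% of all genes were higher and 30.6% lower. The 200 mg/kg mice had B2m higher and Tap1, Tap2 and Nlrc5 lower (17.3% and 30.5% of all genes). TBI alone put B2m and H2-T23 past both limits against either vehicle group (19.6% higher and 16.4% lower against Day 1, 15.1% and 11.8% against Day 0). Among mice given 200 mg/kg, TBI put Tap1 and Tap2 past them (14.9% of all genes higher, 5.73% lower). At 50 mg/kg on Day 0 there was no member (0.127% of all genes higher, 4.38% lower). For the differences between effects, H2-Q6, H2-Q7, Tap1, Tap2 and Nlrc5 passed upward and B2m downward for TBI (19.5% and 10% of all genes), and between days B2m passed upward and the same 5 downward at 100 mg/kg (15.7% and 26.3%). Between days at 200 mg/kg the same genes without H2-Q7 passed (13.1% and 23.6%), and at 50 mg/kg none did (6.73% and 0.961%).

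A ratio of 1 gene's count to another's within a library does not depend on how libraries are scaled, so each member was also set against B2m (with 0.5 added to both counts, exact 2-sided permutation test over mice, 209 ratio tests adjusted together). At 200 mg/kg on Day 1 all 9 other members were lower relative to B2m, without overlap of the groups and each at the smallest exact p that 6 against 6 mice allow, 0.00216 (adjusted p = 0.00923). The log2 ratio differed by -1.30 for H2-T23, -1.50 for H2-K1, -1.53 for H2-D1, -2.001 for H2-Q4, -2.60 for H2-Q7, -2.70 for H2-Q6, -3.26 for Tap1, -3.30 for Nlrc5 and -3.35 for Tap2. At 100 mg/kg the range was -3.60 (Nlrc5) to -1.36 (H2-T23), again for 9 of 9. Of all genes tested, 57.4% at 200 mg/kg and 55.5% at 100 mg/kg were lower relative to B2m without overlap, with median differences of -2.003 and -1.82. The activator, the transporter, H2-Q6 and H2-Q7 lay below these medians, and H2-K1, H2-D1 and H2-T23 above them.

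After TBI alone all 9 were also lower relative to B2m than in the vehicle mice of Day 1, from -2.16 for H2-Q6 to -0.42 for H2-T23 (adjusted p = 0.0476). H2-D1 (-0.71) and H2-T23 overlapped between the groups. At the exact p that the adjusted limit allowed, 53.0% of all genes were lower relative to B2m here. Among mice given 200 mg/kg, 5 ratios were higher with TBI, namely Tap1 (1.86), Tap2 (1.51), H2-D1 (0.81), H2-T23 (0.80) and H2-Q4 (0.72). In that comparison 12.4% of all genes were higher relative to B2m and 9.76% lower. No ratio differed between the irradiated groups. At 50 mg/kg on Day 0, Tap1 (0.63) and H2-Q7 (0.45) were called higher relative to B2m, and all 9 differences lay between 0.37 and 0.63. B2m had its lowest group mean there. The share of all genes was not computed for this comparison, so the calls cannot be set against a background. A ratio shows unequal change and not which of its genes moved.

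**Figure D5:**
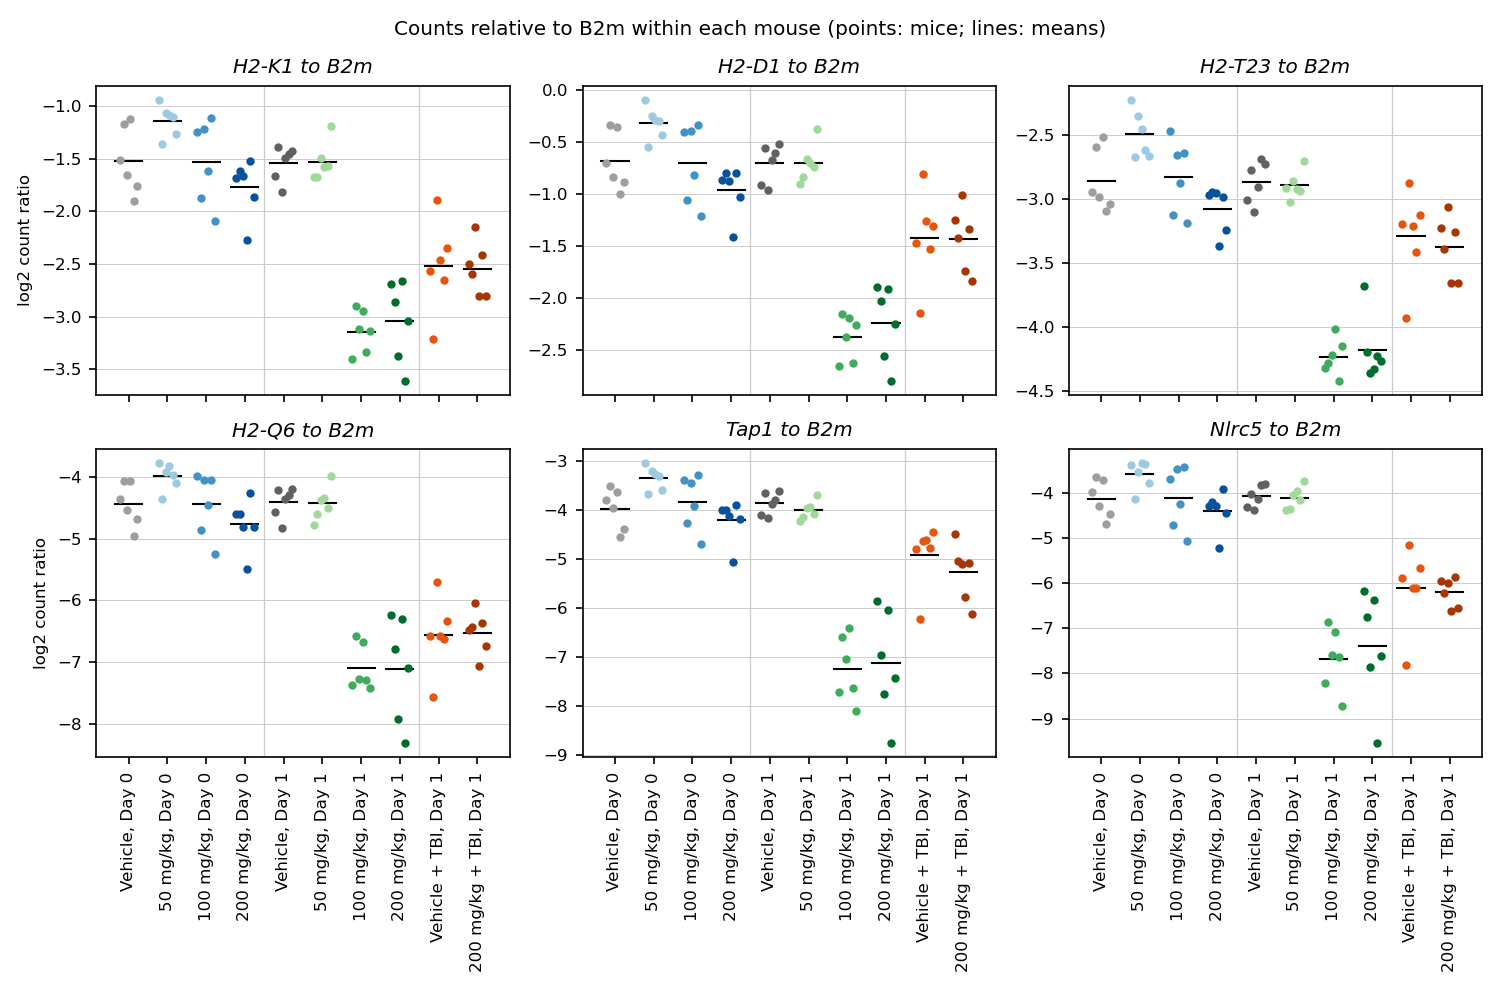
Log2 ratio of the counts of H2-K1, H2-D1, H2-T23, H2-Q6, Tap1 and Nlrc5 to those of B2m in each mouse of the 10 groups. Every mouse at 200 mg/kg on Day 1 lies below every Day 1 vehicle mouse in each panel, with group differences of -1.30 (H2-T23) to -3.30 (Nlrc5).

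Ptprc encodes CD45, which marks nucleated leukocytes. Its median level was 633 CPM in the vehicle mice of Day 1, 188 CPM at 100 mg/kg, 227 CPM at 200 mg/kg and 765 CPM after TBI. Relative to Ptprc, 7 of 10 members were higher at 200 mg/kg, from B2m (3.17), H2-T23 (1.86), H2-K1 (1.67), H2-D1 (1.64) and H2-Q4 (1.17) to H2-Q7 (0.57) and H2-Q6 (0.47) on the log2 scale. Tap1 (-0.10), Tap2 (-0.19) and Nlrc5 (-0.13) were not called. At 100 mg/kg 7 members were likewise higher. At the same limit 49.6% of all genes tested were higher relative to Ptprc at 200 mg/kg and 55.8% at 100 mg/kg, with median differences of 1.17 and 1.39. With the summed counts of Ptprc, Coro1a and Cd53 as the denominator, the H2-Q6 ratio was -0.11 and the H2-Q7 ratio -0.0051 at 200 mg/kg, and -0.20 and -0.069 at 100 mg/kg, none of them called. With that denominator Tap1 (-0.67, adjusted p = 0.0353) and Tap2 (-0.76, adjusted p = 0.0087) were called lower at 200 mg/kg, and Nlrc5 (-0.71, adjusted p = 0.0525) was not. At 100 mg/kg Tap1 (-0.88), Tap2 (-0.68) and Nlrc5 (-1.10) were called lower, and H2-Q4 (0.25) was not called. The Ptprc results of these genes therefore depend on the denominator. After TBI alone B2m (1.34), H2-T23 (0.92) and H2-D1 (0.62) were higher and H2-Q6 (-0.82) and H2-Q7 (-0.75) lower relative to Ptprc. At that limit 16.0% of all genes were higher here and 15.6% lower. Among mice given 200 mg/kg, 5 of 10 ratios to Ptprc were lower with TBI, namely B2m (-1.43), H2-K1 (-0.93), H2-Q7 (-0.93), H2-Q6 (-0.84) and H2-Q4 (-0.71). Of all genes, 38.4% were lower in this comparison and 3.45% higher, with a median difference of -1.34. Tap1 (0.44) and Tap2 (0.084) were not called. With the summed denominator none of the 5 was called, Tap1 was called higher (1.02) and Tap2 (0.67) was not called. Smaller ratios to Ptprc passed the limit on Day 1 at 50 mg/kg, namely H2-K1 (0.26), H2-D1 (0.25) and Nlrc5 (0.22). On Day 0 Tap2 (0.16) passed at 100 mg/kg and H2-K1 (0.23) at 200 mg/kg. Of these, only H2-K1 on Day 0 was called with the summed denominator (0.18). The share of all genes was not computed for these comparisons.

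The rest of the pathway was read from 4 lists, with values after TMM only. Total counts moved the all-gene median from -0.38 to -1.76 at 100 mg/kg on Day 1 and from -0.48 to -1.96 at 200 mg/kg. Values on that scale are not given for these lists, and a rise after TMM may not hold on it. Over all genes, 25% were called higher and 40.6% lower at 100 mg/kg on Day 1, and 23.6% and 39.9% at 200 mg/kg. After TBI alone the shares were 24.4% and 22.4%, and the list counts below stand beside these shares. The first list held 6 genes of peptide loading, editing and trimming (Tapbp, Tapbpl, Calr, Canx, Pdia3 and Erap1), not all of them parts of the loading complex. Of these 6, 1 rose and 4 fell at 100 mg/kg on Day 1, and 1 rose and 3 fell at 200 mg/kg. The chaperone calnexin (Canx) had 0.92 and 0.91 on the log2 scale, the peptide editor Tapbpl -1.37 and -1.36, and the trimming peptidase Erap1 -1.09 and -1.02. The list medians were -0.36 and -0.23. After TBI alone Tapbp, which encodes tapasin, rose by 0.50 and Tapbpl fell by 0.71, with a list median of 0.45, and with 200 mg/kg TBI raised Tapbp by 0.71.

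The 5 immunoproteasome genes, which code for interferon-inducible proteasome subunits and the PA28 activator, were all lower at 100 mg/kg on Day 1. Psmb9 fell by 0.90 and Psmb8 and Psmb10 by 0.66, and at 200 mg/kg Psmb9 alone was called (-0.61, adjusted p = 0.0467). After TBI alone 4 of 5 were lower, with -1.03 for Psmb10, -0.63 for Psmb8 and -0.58 for Psme1. At 50 mg/kg on Day 0, 3 of 5 were higher, with 0.41 for Psmb8, 0.35 for Psmb10 and 0.31 for Psme1. Over all genes, 4.21% were called higher there and 9.87% lower. Psmb9 shares 3.87% of the exonic length of Tap1 on the opposite strand.

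Of 14 further class I and class I-like genes tested at 200 mg/kg on Day 1, 3 rose and 2 fell, and at 100 mg/kg 2 rose and 2 fell. H2-T24 rose by 2.27 and 2.06 on the log2 scale at 200 and 100 mg/kg, and Mr1, which presents vitamin B metabolites to MAIT cells, by 1.92 and 1.87. H2-M3, which presents N-formylated peptides, fell by 2.03 and 2.10. After TBI alone 5 rose and 1 fell, with 2.497 for H2-T24, 2.02 for H2-Q10 and -2.01 for H2-M3. H2-Q10 is known as a liver gene and was highest in mice with hepatocyte RNA, at up to 283 CPM.

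Of 12 transcription factor genes for class I promoters, 3 rose and 6 fell at 200 mg/kg and 4 rose and 6 fell at 100 mg/kg. Rfx5, the DNA-binding partner of NLRC5, fell by 1.63 and 1.55 on the log2 scale, Nfkb1 by 0.997 and 1.02, and Rfxank rose by 0.97 at 200 mg/kg. After TBI alone Rfx5 fell by 1.85 and Nfkb1 by 1.01 while Nfyb rose by 0.56. With 200 mg/kg, TBI raised Irf1 by 1.17 and lowered Rfxank by 1.17. None of the 4 lists held a called gene between the irradiated groups, between the vehicle groups, on Day 0 at 100 or 200 mg/kg, or on Day 1 at 50 mg/kg.

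Across the 60 mice the members did not move as 1 block. The following correlations of log2(CPM + 1) describe mice that share groups, and carry no test. H2-K1 and H2-D1 had 0.97, H2-Q6 and H2-Q7 0.96, H2-Q6 and Nlrc5 0.95, Tap2 and Nlrc5 0.94, and Tap1 and Tap2 0.93. H2-T23 had 0.92 with H2-D1 and -0.15 with H2-Q6, and H2-D1 had 0.19 with H2-Q6. B2m had 0.72 with H2-T23, 0.50 with H2-D1 and 0.46 with H2-K1, against -0.65 with H2-Q6 and -0.62 with Nlrc5. For deviations from the group means, B2m had 0.76 with H2-T23, 0.10 with H2-Q6 and -0.05 with Nlrc5. Among 6728 genes of at least 10 CPM, those most like the mean of the members over the 60 mice included Nod1 (0.940), Zbp1 (0.937), Irf1 (0.935) and Sh3bp1 (0.923). Over the 10 group means they included Mau2 (0.986), Khnyn (0.985), Nod1 (0.982) and Eif2d (0.982).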

How the data were processed

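Per the study's methods, trimming was done with Trimmomatic 0.36 and alignment to GRCm38 with STAR 2.5.2b, and the authors deposited counts of unique gene hits made with Subread 1.5.2. The annotation release and strand setting are not given in the sources used here, and labels and methods differ on the library preparation (poly(A) selection against ribosomal and globin depletion). The deposited DESeq2 tables hold log2 fold changes, p-values and adjusted p-values of the authors' comparisons, which were not used. Their deposited normalized signal (counts divided by size factors) served to check columns and gene names. The number of columns that could not be mapped was 0.

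Each comparison of 6 against 6 mice was fitted on all genes with at least 10 counts summed, with edgeR 4.0.16 (TMM, quasi-likelihood test, Benjamini-Hochberg) and limma 3.58.1 in R 4.3.3 with the data.table package (1.17.8). Differences between effects were contrasts over 4 groups. DESeq2 1.42.0, other scalings, filters and covariates, left-out mice and an added count of 5 were alternatives. Levels are CPM with TMM factors over 60 mice. Python 3.11.15 with numpy 2.4.6, pandas 2.3.3, scipy 1.17.1 and matplotlib 3.10.9 gave ratios, exact permutation tests and figures. The fits were tested on simulated data, where part of the changes set into the data went uncalled, so a gene that was not called is not shown to be unchanged.

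All 10 members are named, and from each other list up to 3 changed genes with the largest absolute fold change, given a mean of 1 CPM or more in either group. Of the genes this rule names, 1 is not reported here. Members and lists were chosen with earlier results of these data known. p-values measure the spread between mice. Groups are consecutive animal numbers, so an order of processing and the groups cannot be told apart. A mouse had hepatocyte RNA when at least 10 of 16 hepatocyte genes exceeded 10 CPM.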

Additional observations from a re-analysis of the deposited data

Results flagged for a closer look

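Of 100 sets of 6 values (10 genes in 10 groups), 8 had a mouse far from the others by Dixon's criterion, and chance gives about 1 in 20. Without TBI these were H2-K1 at 50 mg/kg on Day 1 (mouse 36, highest, 286 CPM), H2-D1 in the Day 1 vehicle group (mouse 29, lowest, 386 CPM), H2-T23 at 50 mg/kg on Day 1 (mouse 31, highest, 106 CPM), H2-T23 at 200 mg/kg on Day 1 (mouse 44, highest, 134 CPM) and B2m at 200 mg/kg on Day 1 (mouse 43, lowest, 1443 CPM). With TBI they were Nlrc5 in the vehicle group (mouse 50, lowest, 13.6 CPM) and, at 200 mg/kg, H2-Q6 (17.7 CPM) and H2-T23 (139.6 CPM), both lowest in mouse 57. Mice 29, 43 and 57 also held hepatocyte RNA.

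The effect of a condition differed between groups, by a test of the difference itself, in 21 member results on the log2 scale. The effect of TBI at 200 mg/kg minus that in vehicle was 0.74 for H2-Q4, 1.39 for H2-Q6, 1.31 for H2-Q7, 1.45 for Tap1, 1.61 for Tap2, 1.66 for Nlrc5 and -1.21 for B2m. The effect of 200 mg/kg on Day 1 minus that on Day 0 was 1.24 for B2m, -1.002 for H2-Q6, -0.99 for H2-Q7, -1.53 for Tap1, -1.44 for Tap2 and -1.49 for Nlrc5. The same difference at 100 mg/kg was 1.39 for B2m, -0.89 for H2-Q4, -1.27 for H2-Q6, -1.16 for H2-Q7, -2.05 for Tap1, -1.80 for Tap2 and -2.16 for Nlrc5, and at 50 mg/kg it was -0.51 for Tap1.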

How the results depend on the processing

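No paired analysis was possible because the groups share no animal numbers. Of 150 single-gene results, scaling by total counts kept direction and side of the threshold in 80 and turned the sign of 33, of which 12 were called under one scaling or the other. By total counts the log2 values were -0.23 for H2-Q4 for TBI against Day 1 vehicle and -0.068 for Tap2 for TBI against Day 0 vehicle. They were -0.022 for H2-K1, -0.0058 for H2-D1, -0.026 for H2-Q4, -0.027 for H2-Q7, -0.079 for H2-T23 and -0.18 for Nlrc5 between the irradiated groups. B2m had 0.46 at 50 mg/kg on Day 0. At 200 mg/kg on Day 0 the values were -0.13 for H2-K1, -0.17 for H2-D1, -0.17 for H2-Q4, -0.17 for H2-Q6, -0.16 for H2-Q7, -0.10 for H2-T23, -0.11 for Tap1 and -0.14 for Nlrc5. They were -0.29 for H2-K1, -0.30 for H2-D1, -0.30 for H2-Q6, -0.33 for B2m and -0.29 for Tap2 at 50 mg/kg on Day 1, and -1.28 for H2-T23 at 100 mg/kg on Day 1. At 200 mg/kg on Day 1 they were -1.39 for H2-K1, -1.43 for H2-D1 and -1.25 for H2-T23. The day differences were -0.80 for B2m at 50 mg/kg, and -1.49 for H2-T23 and -0.067 for B2m at 100 mg/kg. Those at 200 mg/kg were -1.26 for H2-K1, -1.26 for H2-D1, -1.15 for H2-T23 and -0.075 for B2m. Total counts also called 10 members in place of 0 at 50 mg/kg on Day 0, 10 in place of 6 for TBI at 200 mg/kg, and 10 in place of 1 for the day difference at 50 mg/kg. Of all genes, that scaling called 53% at 50 mg/kg on Day 0 and 48.8% for TBI at 200 mg/kg. For the day difference at 50 mg/kg it called 795 genes higher and 12868 lower. Without mice with hepatocyte RNA 15 signs turned, none of them called, with 0.053 for Tap2 for TBI against Day 1 vehicle, -0.019 for Tap2 between the vehicle groups, and -0.0051 for H2-K1, -0.0058 for H2-D1, -0.028 for H2-Q6, -0.075 for H2-Q7 and -0.046 for Nlrc5 at 100 mg/kg on Day 0. Values were also -0.015 for H2-K1, -0.020 for H2-D1, -0.030 for H2-Q6, -0.048 for B2m and -0.016 for Tap2 at 50 mg/kg on Day 1, 0.028 for H2-K1 at 100 mg/kg on Day 1, and 0.049 for H2-K1 and 0.0024 for H2-D1 for the day difference at 100 mg/kg. DESeq2 turned 4 uncalled signs, with 0.052 for Tap2 for TBI against Day 1 vehicle, 0.021 for H2-T23 and 0.018 for Nlrc5 at 50 mg/kg on Day 1, and -0.11 for H2-T23 for the TBI effect at 200 mg/kg minus that in vehicle. Its size factors in edgeR turned 4, with 0.050 for Tap2 for TBI against Day 1 vehicle, 0.021 for H2-T23 and 0.018 for Nlrc5 at 50 mg/kg on Day 1, and -0.11 for H2-T23 for the TBI effect at 200 mg/kg minus that in vehicle. The filterByExpr filter turned 4, with 0.049 for Tap2 for TBI against Day 1 vehicle, 0.0052 for H2-T23 and 0.0029 for Nlrc5 at 50 mg/kg on Day 1, and -0.028 for H2-T23 for the TBI effect at 200 mg/kg minus that in vehicle. No filter turned 1, with -0.019 for H2-T23 for the day difference at 100 mg/kg. The odd or even covariate turned none. For TBI against the Day 0 vehicle mice, filterByExpr called 7 members and leaving out mice with hepatocyte RNA 8, in place of 4. The causes were not tested.

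With each of 12 mice left out in turn, the members called numbered 5 to 8 for TBI against Day 1 vehicle, 7 to 7 on Day 1 at 100 mg/kg, 7 to 8 on Day 1 with 200 mg/kg, 0 to 2 at 50 mg/kg on Day 0, 0 to 0 at 50 mg/kg on Day 1, and 0 to 0 between the irradiated groups. The 2 calls at 50 mg/kg on Day 0 (Tap1 0.47, Tap2 0.36) came without vehicle mouse 14. Of these single-gene fits 662 kept sign and call, 11 gained a call, 10 lost one and 37 turned the sign of an uncalled value. The log2 ranges of the results whose sign turned were -0.16 to 0.082 for Tap2 for TBI against Day 1 vehicle, and -0.015 to 0.057 for H2-K1, -0.020 to 0.051 for H2-D1, -0.038 to 0.062 for H2-Q6, -0.11 to 0.0080 for H2-Q7, -0.030 to 0.019 for H2-T23, -0.048 to 0.070 for B2m, -0.049 to 0.10 for Tap2 and -0.034 to 0.038 for Nlrc5 at 50 mg/kg on Day 1, and -0.011 to 0.18 for H2-D1 at 200 mg/kg on Day 1. They were -0.11 to 0.16 for Nlrc5 between the irradiated groups. Ratios to B2m past the limit numbered 42 of 99 (40 without hepatocyte RNA mice), and ratios to Ptprc 34 of 110 (30 without them, 26 with the summed denominator). An added count of 5 kept both numbers. The split of reads among similar heavy chains was not resolved, and the scale of whole blood RNA was not fixed by these counts.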
